A study of Mus musculus with 38 samples.

Results

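The CD24 gradient among PDGFRA-negative cells at 72 h of retinoic acid (RA) exposure was measured in 3 bulk RNA libraries, which were chosen by their sort gate out of the 38 samples of the series, 25 of them bulk. E14 mouse embryonic stem cells (mESCs), all from 1 line, had been kept in 2i medium with LIF and were then moved to basal N2B27 medium with 0.25 µM all-trans RA. After 72 h, live cells were stained for PDGFRA and CD24, and PDGFRA-negative cells were collected by FACS in terciles of the CD24 signal: T1 held the lowest, T2 the middle and T3 the highest CD24. Each tercile was 1 library, so every interval given here covers counting error only and no difference between terciles could be tested. The libraries set beside them were 2 of undifferentiated mESCs in 2i, 4 of CD24 quartiles (Q1 lowest, Q4 highest) of PDGFRA-negative cells at 48 h, 2 of PDGFRA-/CD24+ (ectoderm-like) and 2 of PDGFRA+/CD24- (XEN-like) cells at 96 h, and an unsorted time course with 1 library per time point. The PDGFRA+/CD24- cells sorted at 72 h gave 1 further library. Ectoderm-like cells cultured to passage 5 and XEN-like cells cultured for 3 weeks after the 96 h sort gave 1 library each. By the study's methods, both cultures were kept in N2B27 with EGF and FGF2. The 72 h PDGFRA+/CD24- gate and both cultures are among the 18 libraries used for the correlations with Ogdh below. All cells other than the mESCs had received RA, the cultured ones before their sort.

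CD24 is a small sialoglycoprotein held on the cell surface by a lipid anchor, and it marks neuroectoderm among other tissues. RA enters cells, is carried by the cellular RA binding proteins CRABP1 and CRABP2, and acts through nuclear RA receptors that switch on Hox genes and neural genes. In the absence of LIF and the 2i inhibitors, mESCs given RA leave naive pluripotency, of which Zfp42 (Rex1) is a standard marker, and give rise to ectoderm-like cells and to cells resembling the extraembryonic endoderm (XEN), which display PDGFRA. A small and fluctuating share of mESCs also passes through a state that resembles the 2-cell embryo and transcribes Zscan4 and Tcstv genes.

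The values were counts of unique molecular identifiers (UMIs), in which each captured mRNA molecule was counted once, and levels are given as UMIs scaled to a library total of 1000000 (CPM). The totals were 1287188 UMIs in T1, 1133599 in T2 and 1302915 in T3, over 13422, 12961 and 12975 detected genes. Of 6794 genes with at least 30 UMIs over the terciles, a gene is said to have risen when its CPM ran in the order T1, T2, T3, its T3 level was at least 2 times its T1 level and the exact 95% interval of that ratio lay above 1. A gene is said to have fallen when it met the mirrored rule. By this rule 207 genes rose (3.05% of those measured) and 403 fell (5.93%). Without the condition on T2, 10.4% of genes differed at least 2-fold between T3 and T1 with an interval off 1. Replicate libraries were compared under the same fold and interval rule, over genes with at least 20 UMIs in the pair. The shares were 10.7% in mESCs, 9.69% in ectoderm-like cells and 11.3% in XEN-like cells. Among the genes measured over the terciles, these replicate shares were 8.64%, 8.60% and 9.83%. The share between T3 and T1 was thus close to the spread between replicate libraries, and slightly above it on the like set of genes. A call on a single gene without support from other libraries is no more than a difference between these 3 libraries. The ribosomal precursor Rn45s, left out of all totals, also moved along the gradient and took 4.19% of UMIs in T1, 2.93% in T2 and 2.60% in T3.

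**Figure D1:**
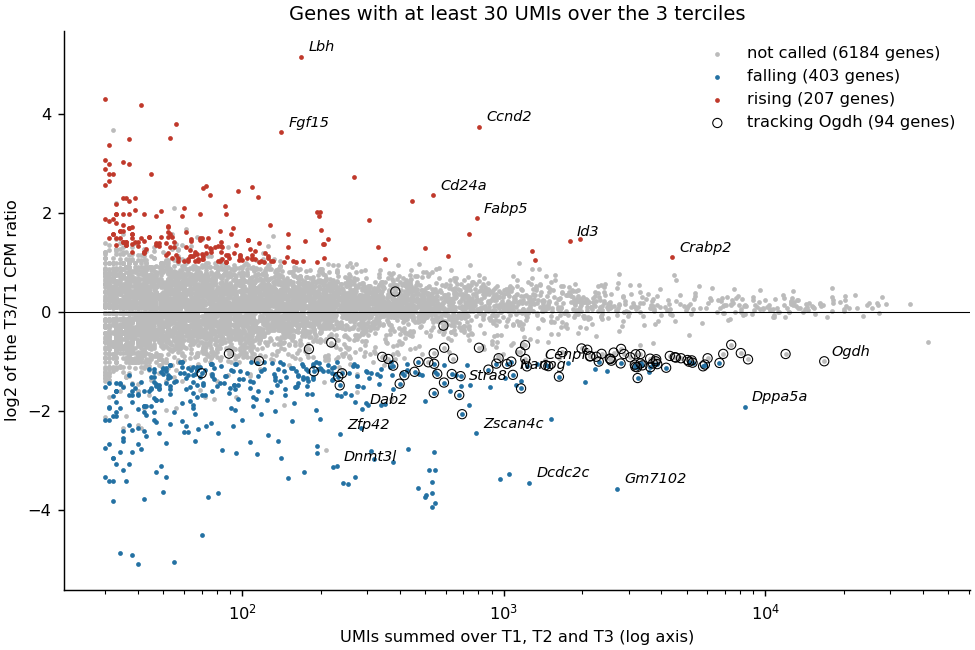
Each point is 1 of the 6794 genes, by its UMIs summed over the terciles (x, log axis) and the log2 ratio of its T3 to its T1 CPM (y). Rising genes are red, falling genes blue, genes with neither call grey, and open circles mark the 94 genes that track Ogdh, which lie in a band near -1.

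The transcripts of the genes behind the labels followed the gates. Cd24a, which encodes the protein sorted on and is therefore a check and not a finding, had 49.7 CPM in T1 (95% counting interval 38.3 to 63.5), 122 CPM in T2 (102 to 144) and 256 CPM in T3 (229 to 285). Its T3 level was 5.14 times its T1 level (3.92 to 6.83), and the gene lies at chr10:43578284-43584265 on the plus strand (mm10). Crabp2, the RA binding protein, stood at 759, 1128 and 1641 CPM, with T3 at 2.16 times T1 (2.00 to 2.33). Zfp42 stood at 128 CPM in T1 (109 to 149), 36.2 CPM in T2 (25.9 to 49.1) and 23.0 CPM in T3 (15.5 to 32.9). Its T1 level was 5.57 times its T3 level (3.76 to 8.51), and most of that difference lay between T1 and T2. Pdgfra was counted at 20, 7 and 3 UMIs (15.5, 6.17 and 2.30 CPM), and fell 6.75-fold (2.00 to 35.5), against 144 and 143 CPM in the XEN-like libraries. The reference genes Gapdh (2273, 2165 and 2185 CPM) and Actb (3353, 3180 and 3349 CPM) were level across the terciles.

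**Figure D2:**
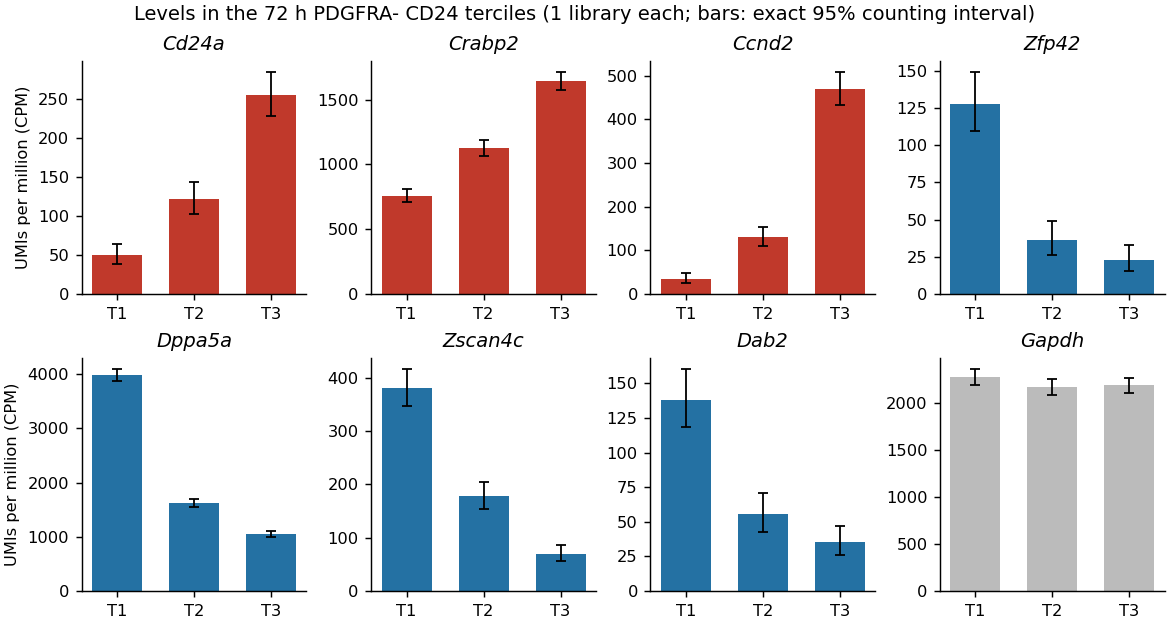
Levels in CPM (y) of 8 genes in T1, T2 and T3 (x), 1 library each, with exact 95% counting intervals as error bars. Cd24a, Crabp2 and Ccnd2 (red) step up at each tercile, Zfp42, Dppa5a, Zscan4c and Dab2 (blue) step down, and Gapdh (grey) stays near 2200 CPM.

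The 12 rising genes with the largest fold, among those with at least 50 UMIs in T3, were Cd24a and the following 11. Lbh, a transcriptional cofactor, was counted at 4 UMIs in T1, 19 in T2 and 145 in T3, a 35.8-fold rise with a wide interval (13.7 to 133). Ccnd2 (cyclin D2), which drives entry into the cell cycle, went from 35.0 CPM in T1 over 130 CPM in T2 to 470 CPM in T3, a 13.4-fold rise (9.92 to 18.6). Its intervals did not overlap between neighbouring terciles. Fgf15, an FGF ligand of the early neural tube, was counted at 9, 19 and 113 UMIs and rose 12.4-fold (6.31 to 27.8). The endothelin receptor gene Ednrb, used by neural crest precursors, rose 6.65-fold (20.2, 59.1 and 134 CPM). Cdh2 (N-cadherin), which replaces E-cadherin when neuroepithelium forms, rose 5.76-fold (12, 27 and 70 UMIs), and the receptor gene Notch2 rose 5.48-fold (11, 24 and 61 UMIs). Sox11, a neural transcription factor, rose 5.14-fold (10, 13 and 52 UMIs), and Nr2f2, an orphan nuclear receptor gene induced by RA, rose 5.02-fold, with most of its increase between T1 (9.32 CPM) and T2 (37.0 CPM). Gpc3, a cell surface heparan sulphate proteoglycan, rose 4.75-fold (40.4, 126 and 192 CPM), and the imprinted Peg12 rose 4.41-fold (13, 15 and 58 UMIs). Ccnd1 (cyclin D1) rose 4.07-fold (20.2, 52.9 and 82.1 CPM).

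The neural progenitor list rose as a group. Of its 24 genes 13 were measured, 9 of them rose, none fell, and all 13 were higher in T3 than in T1. Their median log2 T3/T1 ratio was 1.49, against 0.08 over all measured genes. Besides Cdh2 and Sox11, the members that rose were Fabp5, a fatty acid and RA carrier (93.2, 190 and 347 CPM, 3.72-fold), the transcription factors Pax6 (12, 23 and 34 UMIs), Sox4 (18, 37 and 50 UMIs) and Sox1 (7, 10 and 21 UMIs), the intermediate filament gene Nes (4, 12 and 20 UMIs), the adhesion molecule gene Ncam1 (15, 23 and 37 UMIs) and the growth factor gene Ptn (7, 24 and 40 UMIs). The summed level of the whole list was 926 CPM in T1, 1522 CPM in T2 and 1759 CPM in T3. It was 209 and 184 CPM in the mESC libraries and 2455 and 1923 CPM in the ectoderm-like ones. Mdk, a growth factor gene that was not called, held 499, 762 and 705 CPM of the sums in T1, T2 and T3. Neural crest genes were few: Ednrb and Sox9 (3, 9 and 18 UMIs) rose and Msx1 did not (16.3, 22.9 and 9.21 CPM). Markers of post-mitotic neurons did not join the increase. Only Tubb3 and Stmn2 of 14 were measured, Stmn2 fell 2.93-fold (166, 79.4 and 56.8 CPM) and Tubb3 stood at 25.6, 14.1 and 13.8 CPM. Stmn2 was also abundant in the mESC libraries, at 358 and 850 CPM.

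**Figure D3:**
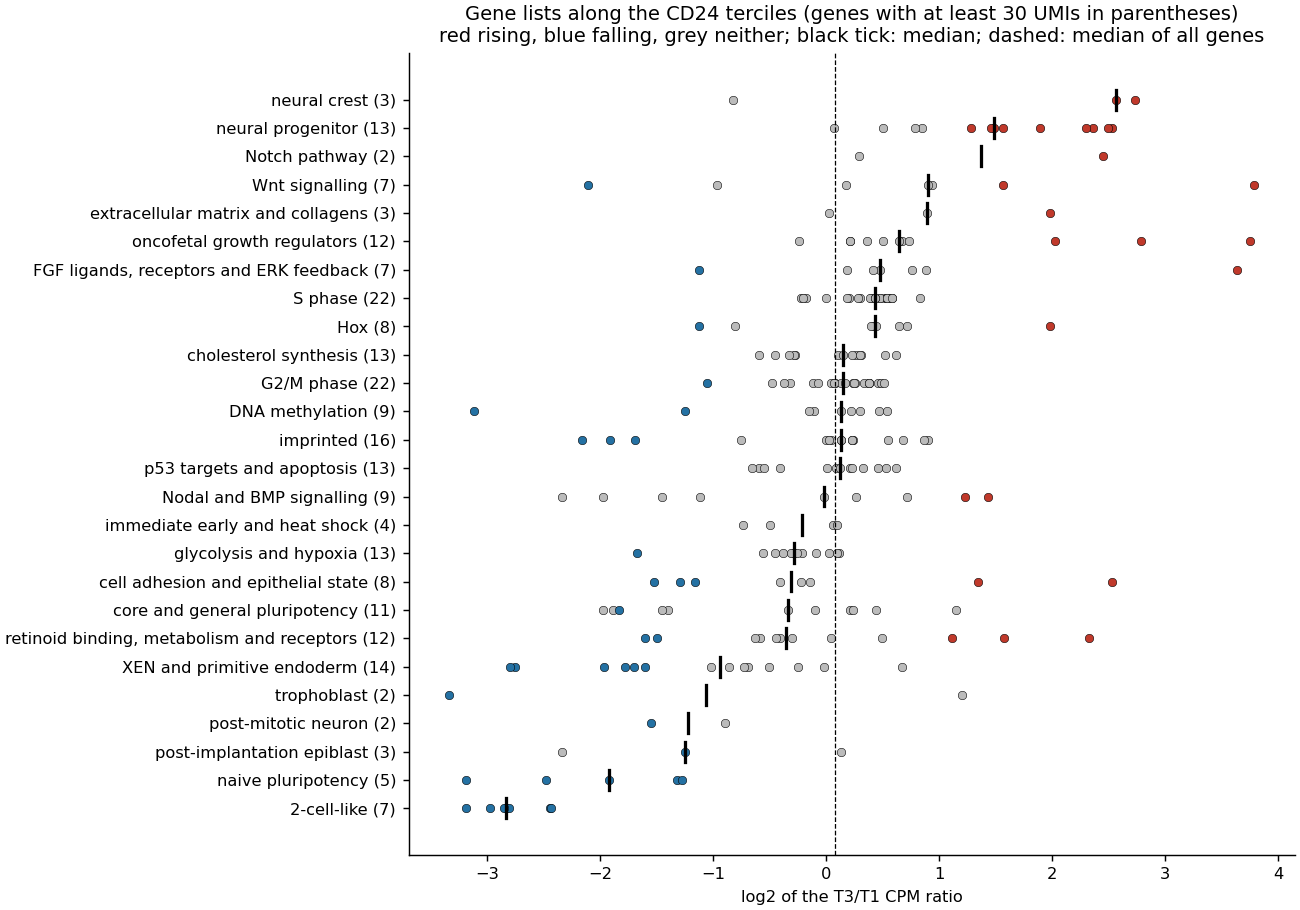
Each point is a measured gene of a list (y, number measured in parentheses) by its log2 T3/T1 CPM ratio (x), red where it rose, blue where it fell and grey otherwise. Black ticks are list medians and the dashed line is the median of all measured genes (0.08). All 7 genes of the 2-cell-like list and all 5 of the naive pluripotency list are blue, and 9 of 13 neural progenitor genes are red.

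Genes of the RA pathway did not move as one group. Of 18 listed genes for retinoid binding, metabolism and receptors 12 were measured, 3 rose (Crabp1, Crabp2 and Nr2f2) and 2 fell. Crabp1 stood at 97.9 CPM in T1, 206 CPM in T2 and 291 CPM in T3, a 2.97-fold rise (2.42 to 3.67). Stra8, a gene induced quickly by RA, fell 2.82-fold (279, 177 and 99.0 CPM), and the receptor gene Rxra fell 3.04-fold on few counts (18, 9 and 6 UMIs). The early RA responder Dhrs3 (126, 124 and 81.4 CPM) had a T3/T1 ratio of 0.65 (0.50 to 0.83), short of the 2-fold minimum. Among 8 measured Hox genes Hoxb5 rose 3.95-fold (10, 19 and 40 UMIs) and Hoxb1 fell 2.18-fold (28, 21 and 13 UMIs). Hoxb2 stood at 346, 424 and 470 CPM, with no call.

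Signalling lists split by member. Among BMP and Nodal genes the BMP targets Id2 (201, 359 and 470 CPM, 2.34-fold) and Id3 (256, 493 and 689 CPM, 2.70-fold) rose and none of the other 7 measured was called. Id1 was nearly level at 50.5, 60.0 and 60.6 CPM. The median of that list was -0.02 and changed sign when Gapdh served as the reference (0.04). In the Wnt list the receptor gene Fzd3 rose 2.96-fold (27, 42 and 81 UMIs), the secreted Wnt inhibitor gene Sfrp2 rose 13.8-fold (3, 11 and 42 UMIs, interval 4.42 to 69.8), and Tcf7l1, a repressor of Wnt targets, fell 4.30-fold (17, 12 and 4 UMIs). Fgf15 was the FGF gene that rose and Fgfbp1, which releases FGFs from the matrix, fell 2.19-fold (73.8, 52.9 and 33.8 CPM). Vcan, a matrix proteoglycan, rose 3.95-fold, and Lin28b, an inhibitor of let-7 processing, rose 6.92-fold (3, 7 and 21 UMIs).

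None of the 22 S phase genes reached 2-fold, but 18 were higher in T3 than in T1. Their median log2 ratio was 0.43, against 0.08 over all measured genes. Pcna, the polymerase clamp, stood at 291, 360 and 420 CPM and the ribonucleotide reductase gene Rrm2 at 197, 203 and 296 CPM. The 22 G2/M genes had a median of 0.15, near that of all genes, with 16 higher in T3. Of them 1, Cenpf, fell 2.07-fold, a call lost with Gapdh as reference. Besides cyclins D1 and D2, their kinase gene Cdk4 (217, 402 and 448 CPM, 2.06-fold) and Skp2, part of the ligase that removes a cyclin kinase inhibitor (35, 55 and 111 UMIs, 3.13-fold), also rose. These last 2 were named after their values were seen. The call on Cdk4, just above the 2-fold minimum, was lost with TMM totals. Lists for p53 targets (13 measured), immediate early and heat shock genes (4 measured) and cholesterol synthesis (13 measured) held no called gene. None of 9 mesoderm and primitive streak genes reached 30 UMIs.

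Of the 12 falling genes with the largest fold among those with at least 50 UMIs in T1, 5 are copies in 1 tandem array on chromosome 10 (Gm21293, Gm8764, Gm21304, Gm21312 and Gm20765, followed by Gm4340). The array runs from Gm21293, at chr10:104142987-104153674, to Gm4340, at chr10:104194042-104196522 (mm10, plus strand). The array genes fell 9.13-fold to 15.4-fold, from 287 to 323 CPM in T1 to 20.0 to 35.3 CPM in T3. Gm7102, at chr19:61174686-61176309 on the minus strand, was the most abundant, with 1589 CPM in T1 (1521 to 1659), 439 CPM in T2 (402 to 480) and 134 CPM in T3 (114 to 155), an 11.9-fold fall (10.2 to 14.0). Dcdc2c, named for a doublecortin domain, fell 11-fold (707, 228 and 64.5 CPM), and 1700030L20Rik (279, 70.6 and 23.8 CPM) and AA792892 (145, 44.1 and 13.1 CPM) fell 11.7-fold and 11.1-fold. Gm2022 fell 11-fold (143, 37.0 and 13.1 CPM). The sperm gene Spesp1 (50, 27 and 4 UMIs) and 1700094D03Rik (53, 17 and 4 UMIs) completed the set.

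Their sequences are shown because they set what these counts can mean. Between 97.3% and 100.0% of the 46-base windows of the array transcripts Gm21293, Gm8764, Gm21304, Gm21312, Gm20765 and Gm4340 also occurred in another gene, so UMIs could not be given to single copies. The same limit holds for Gm2022, which shared 98.7% of its windows. Across calls, 44 of 373 annotated falling genes (11.8%) shared over 50% of their windows with another gene, against 1 of 193 rising genes (0.518%). Windows were counted only for called and 2-cell-like genes, so the share over all measured genes is not known. In all, 9 of the 12 genes held the same 24-base word in a transcript. They were the array copies and also Gm7102, Dcdc2c, 1700030L20Rik and AA792892, which shared 7.66% to 47.4% of their windows with another gene. The word was picked from falling transcripts for its excess there, and it occurred in 16 falling genes, in no rising gene and in 9 of 5830 measured genes with neither call (0.154%). Among those 9, Rbm25 stood at 135, 123 and 159 CPM and Aqr at 52.8, 48.5 and 49.9 CPM. Pemt, Slc16a6 and Atf7ip were lower in T3, with T1/T3 ratios of 2.60, 2.02 and 1.84. Senp7 and D10Wsu102e were higher in T3, with T1/T3 ratios of 0.506 and 0.571. Gnpnat1 and Snrpc had ratios of 1.01 and 1.09. Which RNA the UMIs of each word-bearing gene came from cannot be told apart in these files.
word shared by falling genes: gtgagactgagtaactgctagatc

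The promoter of the array copy Gm8764, 250 bases before to 50 after its RefSeq start (GRCm38.p6, chr10:104159756-104160055, plus strand), holds that word after the start, shown in capitals. Between copies the 6 array promoters were 99.7% to 100.0% identical.
Gm8764: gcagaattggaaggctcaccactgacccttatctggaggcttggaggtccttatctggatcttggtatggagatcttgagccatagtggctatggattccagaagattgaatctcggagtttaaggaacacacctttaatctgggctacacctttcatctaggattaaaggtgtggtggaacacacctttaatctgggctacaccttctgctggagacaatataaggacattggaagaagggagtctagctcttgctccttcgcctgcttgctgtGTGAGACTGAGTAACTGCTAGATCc

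The 2-cell-like list fell as a whole. Of its 8 genes 7 were measured and all 7 fell, with a median log2 T3/T1 ratio of -2.83. Zscan4c, a zinc finger and SCAN domain gene of the 2-cell embryo (chr7:11005745-11010547, plus strand), stood at 381 CPM in T1 (348 to 416), 178 CPM in T2 (155 to 205) and 69.8 CPM in T3 (56.2 to 85.8), a 5.45-fold fall (4.35 to 6.89). Its copies Zscan4a, Zscan4d and Zscan4f fell 7.13-fold, 6.98-fold and 7.84-fold, and the 4 copies shared 52.0% to 87.6% of their windows with other genes. Tcstv1 (94.0, 49.4 and 13.1 CPM) and Tcstv3 (32, 22 and 6 UMIs), which also mark that state, fell 7.21-fold and 5.40-fold. The seventh member, Gm4340, belongs to the array above. The promoters of 3 Zscan4 copies on chromosome 7 are shown because the copies moved together, with the letters TATAAA in capitals, searched on the same strand as the gene. They were 97.2% to 99.3% identical. Searched on either strand, TATAAA stood in 13.6% of all 32851 RefSeq promoters of this length. The either-strand share was 11.7% in promoters of falling genes and 5.88% in those of rising genes.
Zscan4c (chr7:11005495-11005794, plus strand): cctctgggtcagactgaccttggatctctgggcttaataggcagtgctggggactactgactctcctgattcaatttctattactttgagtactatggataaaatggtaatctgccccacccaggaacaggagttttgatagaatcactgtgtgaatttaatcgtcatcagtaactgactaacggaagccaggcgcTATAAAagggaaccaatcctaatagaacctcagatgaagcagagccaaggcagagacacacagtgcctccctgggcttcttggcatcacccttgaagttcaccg
Zscan4d (chr7:11166099-11166398, minus strand): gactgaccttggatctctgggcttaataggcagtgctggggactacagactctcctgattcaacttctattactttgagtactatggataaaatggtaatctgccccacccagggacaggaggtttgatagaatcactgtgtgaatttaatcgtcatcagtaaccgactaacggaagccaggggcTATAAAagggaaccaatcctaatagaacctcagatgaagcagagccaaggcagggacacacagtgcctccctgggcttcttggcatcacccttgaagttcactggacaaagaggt
Zscan4f (chr7:11397665-11397964, plus strand): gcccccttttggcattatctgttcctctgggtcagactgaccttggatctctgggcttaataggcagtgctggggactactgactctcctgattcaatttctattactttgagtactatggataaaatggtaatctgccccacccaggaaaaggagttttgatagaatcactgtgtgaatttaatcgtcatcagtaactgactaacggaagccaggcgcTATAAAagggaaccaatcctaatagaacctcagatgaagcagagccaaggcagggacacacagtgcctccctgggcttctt

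Summed over the list, the 2-cell-like genes stood at 1426 CPM in T1 (1362 to 1493), 593 CPM in T2 (549 to 639) and 207 CPM in T3 (183 to 233). They stood at 5.25 and 7.83 CPM in mESCs, at 113 and 16.8 CPM in ectoderm-like cells and at 46.7 and 21.9 CPM in XEN-like cells. The unsorted culture peaked at 48 h with 253 CPM and held 124 CPM at 72 h, less than any of the 3 terciles. The PDGFRA+/CD24- cells sorted at 72 h held 37.5 CPM. All 4 quartiles at 48 h, between 611 and 1002 CPM, were likewise above the unsorted culture of that time. In bulk libraries, fewer cells in a state and less RNA per cell of that state cannot be told apart.

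**Figure D4:**
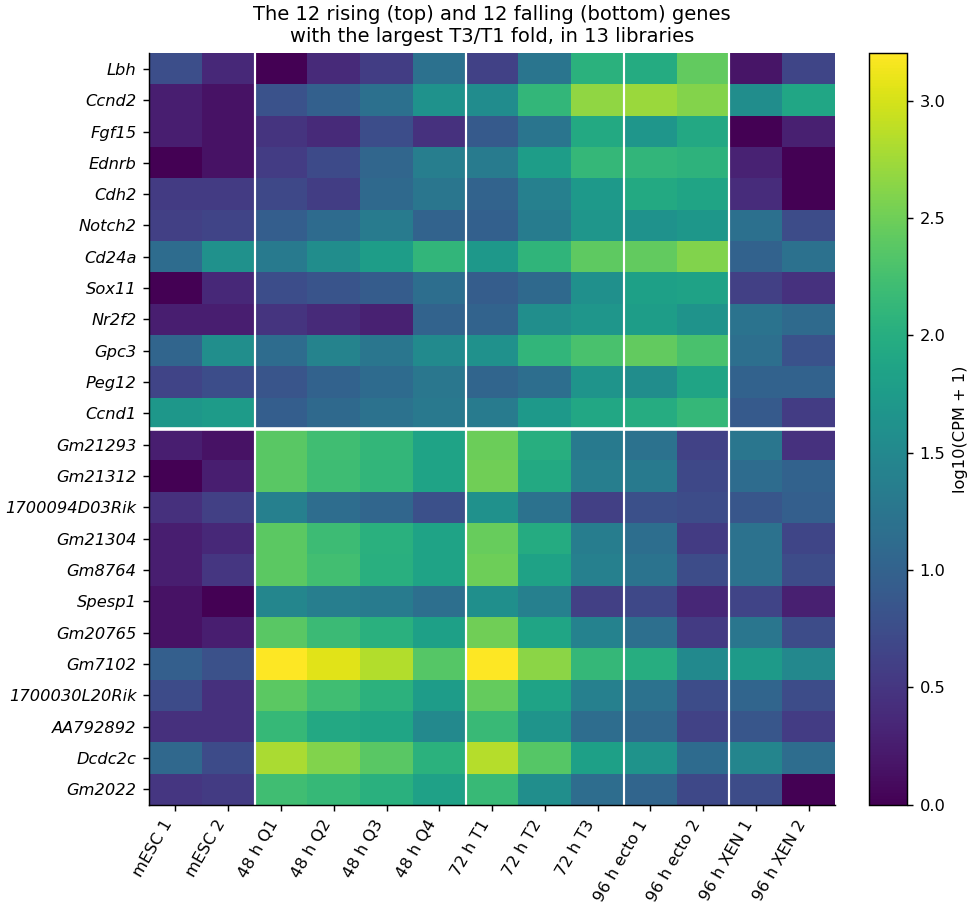
Level (colour, log10 of CPM + 1) of the 12 rising and the 12 falling genes with the largest T3/T1 fold (rows) in 13 libraries (columns, where mESC are the 2i libraries). Rising genes are brightest in T3 and in both 96 h ectoderm-like libraries. Falling genes are brightest in Q1 and T1 and darker in mESCs and in the 96 h cells, with Gm7102 at intermediate levels in the ectoderm-like libraries.

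A second block of falling genes moved in step with Ogdh, a mitochondrial dehydrogenase gene. Ogdh stood at 6405 CPM in T1, 3864 CPM in T2 and 3209 CPM in T3, just short of the 2-fold minimum. Over the 18 bulk libraries outside the CD24 terciles and quartiles, 94 measured genes had a Pearson r of at least 0.9 with Ogdh on the log2(CPM + 1) scale, a description over libraries of 1 cell line that were chosen after the band of points had been seen. Of these, 93 were lower in T3 than in T1, 45 fell and none rose, and their median T1/T3 ratio was 2.00. They took 9.26% of all UMIs in T1, 5.61% in T2 and 4.73% in T3, against 2.82% in the unsorted culture at 72 h, and 9.37% to 13.4% in the quartiles against 5.13% in the unsorted culture at 48 h. In the PDGFRA+/CD24- cells, also sorted at 72 h, the share was 2.45%. At 96 h it was 4.59% and 2.60% in sorted ectoderm-like, 2.20% and 1.75% in sorted XEN-like and 2.15% in unsorted cells. Transcripts of the genes tracking Ogdh shared a 24-base word, on either strand, in 64 of 88 annotated genes (72.7%), against 362 of 6355 other measured genes (5.70%). The word was picked from these same transcripts for that excess, so the shares are a description. The annotated transcripts of Ogdh itself did not hold it. Whether these UMIs came from the named genes or from other RNA that holds the word cannot be told apart in these files.
word shared by genes tracking Ogdh: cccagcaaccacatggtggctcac

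Nanog, a core transcription factor of naive pluripotency, belonged to this group. It fell 2.42-fold (2.06 to 2.83), from 423 CPM in T1 over 275 CPM in T2 to 175 CPM in T3, its r with Ogdh was 0.98, and its transcript held the word on the opposite strand. Its level in mESCs, 163 and 155 CPM, was below that in each tercile. Cenpf (r of 0.86) carried the word as well. Stra8, Dppa2 and Stmn2 had an r of 0.81, 0.75 and 0.74 and did not hold it.

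The naive pluripotency genes fell together. Of 14 listed genes 5 were measured, and all 5 fell, with a median log2 T3/T1 ratio of -1.92. Leaving Nanog aside, Zfp42, Dppa5a, Klf2 and Tbx3 fell and their r with Ogdh lay between 0.02 and 0.48. Dppa5a, an RNA-binding protein of early embryos and germ cells, stood at 3983, 1627 and 1052 CPM (3.79-fold, 3.57 to 4.02). The transcription factor genes Klf2 (27, 5 and 3 UMIs) and Tbx3 (32, 24 and 13 UMIs) fell 9.11-fold and 2.49-fold. The summed list level was 4637, 1990 and 1273 CPM, against 13380 and 18360 CPM in mESCs and 748 and 401 CPM in ectoderm-like cells. Dppa5a was itself high in XEN-like cells (5947 and 4351 CPM) and gave most of the list's UMIs. Among general pluripotency genes 1 of 11 was called, Dppa2, which fell 3.56-fold (117, 66.2 and 33.0 CPM). The epiblast list had 3 measured genes, of which the DNA methyltransferase gene Dnmt3b fell 2.38-fold (40, 20 and 17 UMIs). Its inactive cofactor gene Dnmt3l, in the DNA methylation list, fell 8.68-fold (127, 42.3 and 14.6 CPM).

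A few pluripotency genes had their lowest counts in T2. Pou5f1 (Oct4) was counted at 39 UMIs in T1, 5 in T2 and 15 in T3, L1td1 at 102, 15 and 28, and Tdgf1, a Nodal co-receptor gene, at 27, 3 and 10. In these 3 genes the interval of the T3/T2 ratio held 1, so a T2 level below T3 was not detectable at this depth. The maternal effect gene Ooep, named after its values were seen, had 72, 1 and 22 UMIs, and its T3 level was 19.1 times its T2 level, with an interval of 3.09 to 790. These genes were high in mESCs, for example Pou5f1 at 265 and 292 CPM, and low in ectoderm-like cells, at 3.33 and 0.65 CPM. Gdf3 (27.2, 6.17 and 6.91 CPM) and Lefty1 (23.3, 4.41 and 4.61 CPM) had nearly equal values in T2 and T3. Over all genes 13 were at least 2-fold lower in T2 than in both other terciles with intervals off 1, and 5 were at least 2-fold higher. Sox2, which serves both pluripotent and neural cells, had 19.4, 15.0 and 43.0 CPM.

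XEN and primitive endoderm genes fell along the gradient although every tercile was gated PDGFRA-negative. Of 22 listed genes 14 were measured, 6 fell, none rose and 13 were lower in T3. The endocytic adaptor gene Dab2 stood at 138, 55.6 and 35.3 CPM (3.92-fold), the basement membrane gene Lamb1 at 107, 51.2 and 33.0 CPM (3.25-fold) and Lamc1 at 51.3, 23.8 and 16.9 CPM (3.04-fold). Srgn, a proteoglycan of secretory granules, fell 6.96-fold (55, 21 and 8 UMIs). Apoe also fell (47.4, 39.7 and 13.8 CPM) but was low in XEN-like cells (22.9 and 5.47 CPM). The summed level of the list was 997 CPM in T1, 650 CPM in T2 and 486 CPM in T3. It was 5483 CPM in the PDGFRA+/CD24- cells sorted at 72 h, and 13720 and 8300 CPM in XEN-like cells at 96 h. Over the 14 markers at 100 CPM or more there, the median was 9.61% of the XEN-like level in T1 (2.99% to 37.9%), 4.37% in T2 and 3.20% in T3. Ttr, which was higher in T3 (30.3, 58.2 and 48.4 CPM), was the exception in direction. Most of the same 14 markers were higher in the mean of the 96 h ectoderm-like libraries than in T1. Sparc, for example, stood at 13.12% of the XEN-like level there, against 7.885% in T1. Lamc1, Dab2, Gata6 and Cubn were lower there than in T1, with Cubn at 3.695% against 10.03%. A remaining XEN level was thus not particular to T1. The 96 h ectoderm-like replicates themselves differed in the summed list, at 622 and 2190 CPM, with T1 between them.

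The keratin genes Krt8 (44.3, 26.5 and 15.3 CPM) and Krt18 (152, 117 and 69 UMIs) and the tight junction gene Cldn6 (67.6, 35.3 and 27.6 CPM) fell 2.88-fold, 2.23-fold and 2.45-fold, while Cdh2 and the E-cadherin repressor gene Zeb1 (7, 11 and 18 UMIs) rose. The call on Zeb1 was lost with TMM or DESeq2 totals. Cdh1 (E-cadherin) was counted at only 21, 17 and 16 UMIs. Of the 2 measured trophoblast genes, Plac1 fell 10.1-fold (40, 7 and 4 UMIs) and the transcription factor gene Gata3, at 6, 10 and 14 UMIs, was not called. Among the 16 measured genes of the imprinted list, which does not hold the rising Peg12, 3 fell, namely Igf2 (106, 71.5 and 33.0 CPM), the neighbouring noncoding H19 (26, 12 and 7 UMIs) and Phlda2, which restrains placental growth (99.4, 37.0 and 22.3 CPM). The other 13 were not called, and Mest stood at 256, 370 and 409 CPM. In the glycolysis and hypoxia list Bnip3, a mitophagy receptor induced by low oxygen, fell 3.19-fold (85, 34 and 27 UMIs), and 10 of 13 genes were lower in T3.

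The CD24 quartiles of the earlier sort, at 48 h, were separate libraries that the 72 h calls did not use. Of 6339 genes measured at both times, Q4 was at least 2-fold above Q1 with an interval off 1 in 4.13% and below it in 2.73%. Among 160 rising genes measured there, 43 (26.9%) were above and 1 was below. Q4 exceeded Q1 without regard to size in 126 of them (78.8%), against 54.3% of all genes. Among 386 falling genes 69 (17.9%) were below and 9 above, and 319 (82.6%) had the lower level in Q4, against 45.7% of all genes. Without the genes that track Ogdh these last shares were 66 of 341 (19.4%) and 274 (80.4%). Ccnd2 (5.35, 8.57, 14.1 and 42.3 CPM from Q1 to Q4), Crabp2 (359, 506, 847 and 1089 CPM) and Ednrb (2.67, 4.29, 10.3 and 22.7 CPM) climbed through all quartiles. Fgf15 stayed between 1.43 and 4.70 CPM, a few UMIs per library, at which no gradient was detectable. Gm7102 went down from 1574 CPM over 1135 and 669 CPM to 228 CPM. The Zscan4 copies differed less at 48 h than at 72 h: Zscan4c had 258, 268, 265 and 200 CPM, a Q1/Q4 ratio of 1.29 (1.109 to 1.502), whereas its T1/T3 ratio was 5.45. Neither ratio had a replicate, and the difference between them was not tested.

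**Figure D5:**
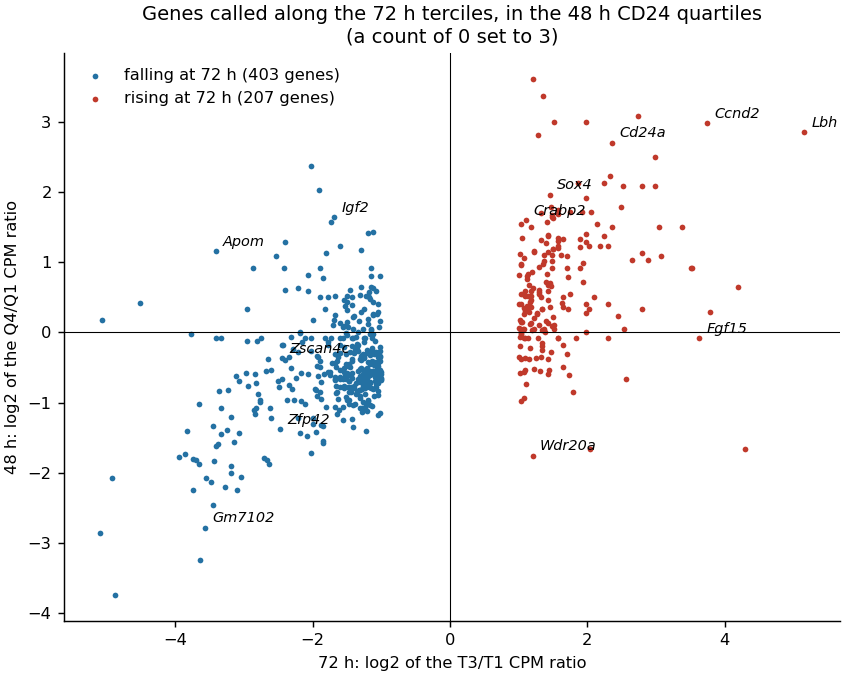
Genes called at 72 h, by their log2 T3/T1 ratio (x) and their log2 Q4/Q1 ratio at 48 h (y), with a count of 0 set to 3. Most of the 207 rising genes (red) lie above the zero line and most of the 403 falling genes (blue) below it, with Apom, Igf2 and Wdr20a on the opposite side.

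Set beside the start and the end of the lineage, the rising genes were mostly genes of ectoderm-like cells. In 142 of the 207 (68.6%) both 96 h ectoderm-like libraries lay above both mESC libraries with means at least 2-fold apart, against 21.3% of all measured genes, and in 4 they lay below. Ccnd2 went from 0.87 and 0.44 CPM in mESCs to 524 and 404 CPM, and Lbh from 4.81 and 1.31 CPM to 92.3 and 273 CPM. Falling genes were divided. The ectoderm-like libraries lay below mESCs in 88 of 403 (21.8%), against 5.42% of all genes. They lay above mESCs in 80 (19.9%), near the 21.3% of all genes. The XEN-like libraries lay above the ectoderm-like ones in 93 (23.1%), against 7.36% of all genes and 1 rising gene. A majority, 255 (63.3%), were neither below mESCs in ectoderm-like cells nor higher in XEN-like cells. A further pattern was a high level in the sorted Q1 library: in 162 falling genes (40.2%) the level in Q1 at 48 h was at least 2-fold above all 6 mESC, ectoderm-like and XEN-like libraries, against 257 of all 6794 measured genes (3.78%) and no rising gene. Gm7102 was one of these, with 8.31 and 5.22 CPM in mESCs and 98.9 and 31.7 CPM in ectoderm-like cells. The unsorted time course was not used for this count, and whether these genes peak in time was not tested. Between the 2 ectoderm-like libraries 123 of 332 falling genes (37.0%) differed at least 2-fold, against 22 of 206 rising genes (10.7%) and 569 of all 6620 (8.60%). In the other replicate pairs the shares were 17.4% of falling and 18.4% of rising genes in mESCs, and 16.9% and 14.0% in XEN-like cells.

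The unsorted culture at 72 h gave a further view of the falling genes. Its level lay below all 3 terciles for 167 of the 403 (41.4%), against 1348 of all 6794 genes (19.8%) and 6 of the rising ones. The part of staining and sorting in this was not tested. The unsorted level lay above all 3 terciles for 41 of the 207 rising genes (19.8%) and 51 of the falling ones (12.7%). Of all measured genes, 2742 (40.4%) were above. Crabp1, a rising gene, was among them, at 481 CPM against 291 CPM in T3. Other rising genes lay between: Cd24a had 126 CPM, Crabp2 1072 CPM and Ccnd2 238 CPM in the unsorted culture, each between its T1 and its T3 level.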

How the data were processed

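Sorted cells were profiled by bulk digital gene expression with unique molecular identifiers. Reads were mapped by the authors to mm10 RefSeq mRNAs (BWA 0.7.4). The deposited values are whole-number counts of unique UMIs per gene and library, not normalized. Aligner and build are those of the submitters' processing notes. The table held 23481 rows, and no column was of a sample outside the series. Gkn2 and Rn45s, whose cells were damaged as text in some libraries, were left out everywhere, and 27 rows with dates in place of names or with duplicate names (0.162% of UMIs in T1) stayed in the totals only. Levels were UMIs divided by the library total. Library totals ran from 1063830 to 2459483 UMIs.

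With 1 library per tercile there was no test. Exact Poisson intervals for levels and exact conditional binomial intervals for ratios (95%) were computed with Python 3.11.15 and scipy 1.17.1 and cover counting error only, so that low counts give wide intervals. The script was tested on simulated data. Genes with under 30 UMIs over the terciles were not called. The named genes were the 12 rising and 12 falling ones of largest fold with at least 50 UMIs in the larger of T1 and T3, every gene of 27 lists (397 genes), the markers Cd24a, Crabp2, Zfp42 and Pdgfra, and Gapdh and Actb. The members and lists were chosen with earlier results of these data known. The 2 replicate libraries each of mESCs, ectoderm-like and XEN-like cells gave the spread beyond counting. They are biological replicates by the study's methods. Alternatives were other folds, UMI minimums, totals (TMM of edgeR 4.0.16, DESeq2 1.42.0 size factors, Gapdh) and gene sets left out. Shared windows and words were counted in GENCODE M21 transcripts, and promoters were taken from RefSeq (GRCm38.p6). Of 20 leading falling and 2-cell-like genes 14 had a promoter there.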

Additional observations from a re-analysis of the deposited data

Results flagged for a closer look

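In 10 genes the direction along CD24 was opposite at 48 h and at 72 h, each past 2-fold with a counting interval off 1 (log2 of T3/T1 at 72 h and of Q4/Q1 at 48 h). Each comparison rests on 1 library per gate, and the difference between the times was not tested. The 9 that fell at 72 h were 2.33% of 386 falling genes, against 4.13% of all genes higher in Q4, and the 1 that rose was 0.625% of 160 rising genes, against 2.73% lower. Igf2, the imprinted growth factor gene, was -1.69 at 72 h and 1.64 at 48 h, that is 106, 71.5 and 33.0 CPM from T1 to T3 and 15.4, 31.4, 51.7 and 48.0 CPM from Q1 to Q4. Clu, a secreted chaperone gene, was -1.12 at 72 h and 1.43 at 48 h. Apom, an apolipoprotein gene, was -3.41 and 1.16 on 21, 8 and 2 UMIs at 72 h. Dpp4, a cell surface peptidase gene, was -2.54 and 1.09, and Pmp22, a membrane glycoprotein gene, was -1.80 and 1.13. The placental homeobox gene Rhox6 was -1.19 and 1.42. Rab3b was -1.73 and 1.58, Tnfaip8l2 was -2.41 and 1.30, and Dap was -1.29 and 1.18. Wdr20a alone rose at 72 h, at 1.2 against -1.76 at 48 h, on 9, 12 and 21 UMIs.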

How the results depend on the processing

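The counts of rising and falling genes depended on the size and count limits. At a 1.5-fold limit 411 genes rose, at a minimum of 100 UMIs 57 rose and 212 fell, and with an interval off 1 demanded at both steps (T1 to T2 and T2 to T3) 25 rose and 111 fell. Choices of total, a lower or no UMI minimum and no condition on T2 gave 170 to 290 rising and 360 to 587 falling genes, within 1.5 times of the 207 and 403 reported. No called gene could change direction under these settings. A call needed a 2-fold difference, and other totals moved the median log2 ratio by about 0.07 at most. Of the list medians, that of Nodal and BMP genes changed sign. Among listed genes, Zeb1 lost its call with TMM, DESeq2 or Ogdh-free totals and Cenpf with Gapdh as reference. Cdk4, outside the lists, lost its call with TMM or Ogdh-free totals. Among choices of total, the split shifted most with those that left out the genes tracking Ogdh (170 and 449) and with Gapdh as reference (231 and 360). After seeing the data, leaving out genes tracking Ogdh gave 358 falling genes, leaving out genes past 2-fold between replicates of any group gave 208, and leaving out genes tracking Ogdh, multi-copy genes and XEN-like genes together gave 229. At 48 h the falling genes lower in Q4 numbered 158 at 1.5-fold and 32 with Q3 and Q4 summed against Q1 and Q2, against 69. Leaving out each mESC or ectoderm-like library in turn moved the rising genes that were higher in ectoderm-like cells between 133 and 142, and the falling genes that were lower there between 91 and 105. No paired analysis was possible because each tercile is 1 library without a replicate number. A gene with 3 UMIs in 1 tercile has a ratio known only to within several-fold.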

Other observations

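Some abundant genes outside the lists also moved along the gradient, and they were named after their values were seen. Cd9, a tetraspanin gene of the surface of pluripotent and extraembryonic cells, fell 3.70-fold (435, 181 and 119 UMIs). Lgals1, a galectin gene, fell 2.33-fold (1317, 1014 and 566 CPM), and Car2, a carbonic anhydrase gene, fell 2.68-fold (818, 532 and 306 CPM). Krt19, a simple epithelial keratin gene, was counted at 33, 21 and 1 UMIs, a 33.4-fold difference with an interval of 5.59 to 1359. Among rising genes, 2810417H13Rik went from 274 CPM in T1 over 551 CPM in T2 to 757 CPM in T3 (2.77-fold). Zic2, a neural plate transcription factor gene, rose 2.13-fold (46, 60 and 99 UMIs). Foxb1, a neural tube gene, was counted at 2, 2 and 37 UMIs, and its equal counts in T1 and T2 leave the rise to the last step. Epha7, an ephrin receptor gene of the neural tube, rose 8.23-fold (3, 7 and 25 UMIs).

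Across the 6339 genes measured at both times, the log2 ratio T3/T1 at 72 h and the log2 ratio Q4/Q1 at 48 h had a Pearson r of 0.38. Genes are not independent replicates, and genes tracking Ogdh are part of both.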
